A study of Homo sapiens with 26 samples.

Results

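The oxidative phosphorylation genes described here were all protein-coding genes whose symbol began with NDUFA, NDUFB, NDUFC, NDUFS, NDUFV, SDH, UQCR, COX4 to COX8, ATP5, MT-ND, MT-CO, MT-CYB or MT-ATP. This rule found 115 of the 41078 genes in the table, of which 102 were encoded in the nucleus and 13 on the mitochondrial genome. By the complex they belong to, the nuclear members comprised 38 of complex I, 4 of complex II, 9 of complex III, 19 of complex IV (NDUFA4 and NDUFA4L2 were counted here) and 20 of complex V, with 12 assembly factors (NDUFAF and SDHAF genes) caught by the same prefixes and kept apart. The mitochondrial members comprised 7 subunits of complex I, 1 of complex III, 3 of complex IV and 2 of complex V. Messenger RNA had been sequenced once from each of 26 single cell-derived cell lines (SCDCLs), clones grown by limited dilution from the pancreatic ductal adenocarcinoma lines BxPC3 and Panc-1. The labels gave 12 libraries as BxPC3 and 14 as Panc-1, and gemcitabine stands as treatment in all of them, although in the study's methods the drug belongs to separate viability assays. Each SCDCL was 1 clone in 1 library, so the spread between libraries is a spread between clones of a line.

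Of the 26 libraries 14 went against their labels. SMAD4, a transcription factor gene that BxPC3 cells have lost and Panc-1 cells retain, was at most 0.0440 TPM (a read density scaled to the same total in every library) in 12 libraries and 28.1 to 52.2 TPM in the other 14. The 12 SMAD4-low libraries carried the Panc-1 label in 7 cases and the BxPC3 label in 5, and the 14 SMAD4-expressing libraries carried each label in 7 cases. No library was moved to another label. The members were compared between these sets of 12 and 14, a division made from measured SMAD4 and not from the labels, and the labelled lines were compared as well.

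Oxidative phosphorylation is the way mitochondria turn the energy of food into ATP. Complexes I to IV pass electrons from NADH and succinate to oxygen and pump protons across the inner membrane, with complex II carrying electrons without pumping, and complex V, the ATP synthase, uses the returning protons to make ATP. Most subunits are encoded in the nucleus and imported, while a few hydrophobic core subunits are encoded on the mitochondrial genome, which is copied into long RNAs that are then cut into single messengers. Complex II alone has no mitochondrially encoded subunit.

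The promoters of 4 nuclear members that come up repeatedly below are shown first: SDHA and NDUFA8, which were higher in the SMAD4-low set, and NDUFA12 and COX7A2L, which were lower. They run from 250 bases before to 50 bases after the gene's start in RefSeq (GRCh38.p14), at chr5:218070-218369 on the plus strand for SDHA, and on the minus strand at chr9:122159730-122160029 for NDUFA8, chr12:95003648-95003947 for NDUFA12 and chr2:42361168-42361467 for COX7A2L. Capitals mark matches to GCGCANGCG on either strand, the core of the motif of NRF1 (nuclear respiratory factor 1, an activator of many respiratory chain genes), with overlapping matches run together.
SDHA: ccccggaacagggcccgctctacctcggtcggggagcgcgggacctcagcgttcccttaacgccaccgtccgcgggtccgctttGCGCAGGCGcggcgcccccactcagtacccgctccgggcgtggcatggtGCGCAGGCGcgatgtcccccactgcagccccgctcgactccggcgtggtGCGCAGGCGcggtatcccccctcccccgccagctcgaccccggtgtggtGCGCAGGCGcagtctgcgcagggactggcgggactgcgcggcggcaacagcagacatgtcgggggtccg
NDUFA8: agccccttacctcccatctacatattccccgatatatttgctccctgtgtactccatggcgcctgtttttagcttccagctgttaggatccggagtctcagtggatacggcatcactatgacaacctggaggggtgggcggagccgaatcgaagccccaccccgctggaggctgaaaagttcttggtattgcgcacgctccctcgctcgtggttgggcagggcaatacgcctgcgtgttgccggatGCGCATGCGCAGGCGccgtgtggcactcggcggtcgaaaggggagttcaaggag
NDUFA12: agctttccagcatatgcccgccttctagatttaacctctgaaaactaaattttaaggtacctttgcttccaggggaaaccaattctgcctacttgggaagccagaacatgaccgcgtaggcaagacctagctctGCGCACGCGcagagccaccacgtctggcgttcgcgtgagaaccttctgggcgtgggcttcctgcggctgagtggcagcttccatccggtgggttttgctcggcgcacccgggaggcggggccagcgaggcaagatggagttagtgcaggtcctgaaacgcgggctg
COX7A2L: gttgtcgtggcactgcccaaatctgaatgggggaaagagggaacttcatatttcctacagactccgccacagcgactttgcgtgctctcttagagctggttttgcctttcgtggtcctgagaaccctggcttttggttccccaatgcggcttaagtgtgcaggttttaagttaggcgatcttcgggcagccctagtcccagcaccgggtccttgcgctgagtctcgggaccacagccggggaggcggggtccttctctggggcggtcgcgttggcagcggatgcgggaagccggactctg
The 4 matches in SDHA began 166, 117, 68 and 19 bases before the start, and those in NDUFA8 overlapped each other at the start itself. NDUFA12 held 1 match, and COX7A2L held none. These 4 genes were picked after their values were seen, and other members did not follow their order. ATP5ME, which was lower, held 3 matches, and COX4I1, ATP5IF1, SDHAF1 and NDUFV1, which were higher, held none. Counts over all matched members are given below.

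The totals ranged from 27035724 to 34945608 estimated counts per library. The sets differed in cell-type markers: EPCAM, an epithelial adhesion protein, ranged from 239 to 424 TPM in the SMAD4-low set and from 7.49 to 25.5 TPM in the other, and VIM, a mesenchymal filament protein, from 1.42 to 73.2 TPM and from 3047 to 4526 TPM. Neither list went one way as a whole: of 5 epithelial markers EPCAM, CDH1 and KRT19 were higher in the SMAD4-low set and KRT8 (-2.18) and KRT18 (-1.56, log2 fold changes) lower, and of 4 mesenchymal markers VIM, ZEB1 and CDH2 were lower and FN1 (4.50) higher. Of markers of other cell types, PTPRC (leukocytes) did not exceed 0.535 TPM, DCN (fibroblasts) 1.07 TPM, PRSS1 (acinar cells) 0.948 TPM and INS (endocrine cells) 0.233 TPM in any library. PECAM1 (endothelium) reached 6.07 TPM and COL1A1 (fibroblasts) 26.5 TPM in the SMAD4-low set and 38.5 TPM in the other, and neither was called. The part of these markers in the results was not tested. With edgeR's quasi-likelihood test and Benjamini-Hochberg adjustment over 16008 genes, 76.7% of all genes differed between the sets at an adjusted p under 0.05, 38.0% higher and 38.7% lower in the SMAD4-low set. A difference of over 2-fold as well, in either direction, was found for 39.0% of all genes, and the TPM ranges of the sets did not overlap for 14.6% upward and 15.4% downward. These shares are the background for every count below, and all log2 fold changes are the SMAD4-low set minus the SMAD4-expressing set.

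Most nuclear members that differed were lower in the SMAD4-low set, whereas the mitochondrial members that differed were all higher. Of the 102 nuclear members 95 passed the filter on low counts, and of these 16 (16.8%) were higher, 44 (46.3%) lower and 35 not called. Their median log2 fold change was -0.16, beside -0.01 over all genes tested, of which 38.0% were higher and 38.7% lower. Over 2-fold, 8 of the 95 differed, beside 39.0% of all genes: SDHA upward and NDUFA12, NDUFA1, COX6B2, COX7A2L, ATP5MC2, NDUFAF3 and SDHAF4 downward. The ranges did not overlap upward for 3 of the 95 (NDUFA8, SDHA and ATP5F1C), beside 14.6% of all genes. Downward they did not overlap for 15 of the 95, a share close to the 15.4% of all genes. All 13 mitochondrial members were tested, with 10 (76.9%) higher, 0 lower and 3 not called, and a median log2 fold change of 0.82. Of all genes 76.7% were called in either direction and 38.0% were higher. Over 2-fold were 4 (MT-CO1, MT-CO3, MT-ATP6 and MT-ATP8), beside 39.0% of all genes in either direction. For none of the 13 did the ranges separate. The 13 varied together between clones, as given below, so their calls are not independent. The plot of fold changes by complex shows the members tested.

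**Figure D1:**
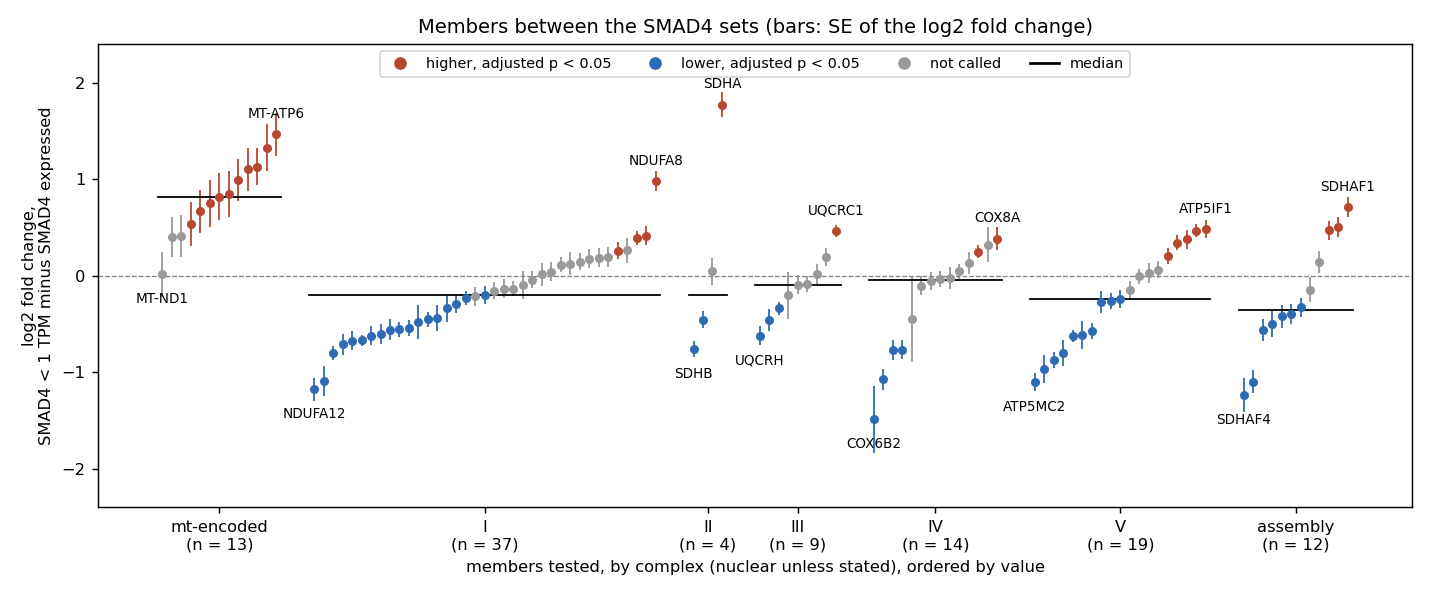
Log2 fold change (SMAD4-low minus SMAD4-expressing libraries) of the 108 members tested, with its SE, grouped by complex and ordered by value, with colour for the call at an adjusted p under 0.05 and black lines for group medians. The mitochondrially encoded group lies above 0 with a median of 0.82, the nuclear groups have medians between -0.36 and -0.04, and SDHA stands highest at 1.77.

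Complex I, the NADH dehydrogenase and the entry point of electrons from NADH, had 4 nuclear members higher, 18 lower and 15 not called of 37 tested. NDUFA12, an accessory subunit, ranged from 70.6 to 121 TPM (median 94.5) in the SMAD4-low set and from 126 to 279 TPM (median 228) in the other, so that the sets did not overlap. Its log2 fold change was -1.18 (SE 0.12, adjusted p = 6.19e-10, edgeR). NDUFA1, the X-linked accessory subunit needed for assembly and the nuclear complex I member of highest median over all libraries together, ranged from 287 to 900 TPM (median 582) and from 875 to 1466 TPM (median 1200), with a log2 fold change of -1.09 (SE 0.16, adjusted p = 3.47e-07, edgeR). In both genes each set kept to its own part of the scale, with a small overlap in NDUFA1 only. NDUFA8, an accessory subunit facing the intermembrane space, went the other way. It ranged from 129 to 242 TPM (median 148) in the SMAD4-low set and from 60.6 to 98.1 TPM (median 79.6) in the other, with a log2 fold change of 0.98 (SE 0.10, adjusted p = 6.04e-10, edgeR).

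By subunit class within complex I, the NDUFB members, which sit in the membrane arm, were lower in 7, higher in none and not called in 4 of 11, with a median log2 fold change of -0.45. The NDUFS members, most of them iron-sulfur proteins of the core or its surroundings, were lower in 4 and higher in 1 of 8. NDUFS1, which holds iron-sulfur clusters of the electron path, had a median of 30.3 TPM in the SMAD4-low set (20.5 to 35.7) and of 51.6 TPM in the other (45.4 to 63.9), without overlap. The NDUFA members had 2 higher and 4 lower of 12, the NDUFC members 2 lower of 3, and the NDUFV members, which include the NADH-binding subunit NDUFV1, 1 higher and 1 lower of 3. NDUFA6 was near 1 TPM in every library (0.368 to 2.05 TPM) and did not pass the filter, and whether reads of this gene were assigned to an identifier without a symbol was not tested, so this value is uncertain as its level.

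Complex II, succinate dehydrogenase, links the tricarboxylic acid cycle to the chain, and its 4 subunits did not move together. SDHA, the flavoprotein that oxidises succinate (chr5:218303-257082, plus strand), ranged from 134 to 345 TPM (median 258) in the SMAD4-low set and from 46.7 to 123 TPM (median 72.5) in the other. Every SMAD4-low library lay above every SMAD4-expressing one, and the log2 fold change was 1.77 (SE 0.13, adjusted p = 1.04e-12, edgeR). SDHB, the iron-sulfur subunit that takes the electrons from SDHA, was lower without overlap, at 101 to 142 TPM (median 119) against 156 to 249 TPM (median 207), with a log2 fold change of -0.76 (SE 0.08, adjusted p = 3.65e-09, edgeR). SDHC, a membrane anchor, had medians of 141 and 183 TPM, with a log2 fold change of -0.46 (SE 0.09, adjusted p = 3.57e-05, edgeR) and overlapping ranges. SDHD, the other anchor and the subunit of highest median over all libraries together, had medians of 195 and 208 TPM and was not called, with a log2 fold change of 0.05 (SE 0.14). The ratio of SDHA to SDHB in TPM ran from 1.12 to 3.04 (median 2.10) in the SMAD4-low libraries and from 0.187 to 0.594 (median 0.375) in the others. Within the SMAD4-low set its median was 2.12 for the 5 libraries labelled BxPC3 and 2.08 for the 7 labelled Panc-1. The 4 pseudogenes of SDHA summed to a median of 4.59 TPM in the SMAD4-low set and 4.16 TPM in the other.

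**Figure D2:**
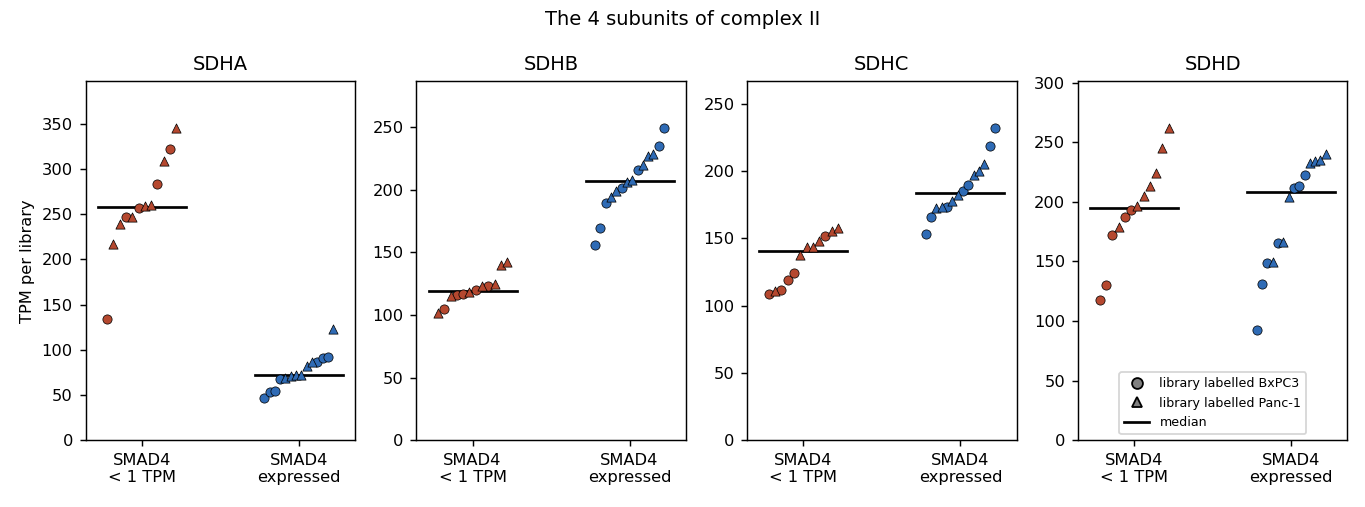
TPM of the 4 subunits of complex II in each of 26 libraries, by SMAD4 set, with the marker shape for the labelled line and a black line for the median. SDHA separates upward and SDHB downward in the SMAD4-low set, while SDHC and SDHD overlap between the sets.

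Complex III, which passes electrons from coenzyme Q to cytochrome c, had 1 nuclear member higher, 3 lower and 5 not called of 9. UQCRC1, a core protein of the matrix side, ranged from 150 to 233 TPM (median 197) in the SMAD4-low set and from 122 to 163 TPM (median 142) in the other, with a log2 fold change of 0.46 (SE 0.06, adjusted p = 1.80e-07, edgeR). UQCRH, the hinge protein and the nuclear member of the complex with the highest median over all libraries, ranged from 482 to 711 TPM and from 703 to 1044 TPM, with a log2 fold change of -0.62 (SE 0.10, adjusted p = 2.39e-06, edgeR). Both pairs of ranges overlapped slightly. The value of UQCRFS1, the Rieske protein, is uncertain because its pseudogenes summed to medians of 35.5 and 37.6 TPM beside 66.8 and 70.3 TPM for the gene, and UQCRHL, a near copy of UQCRH, did not exceed 0.489 TPM.

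Complex IV, cytochrome c oxidase, passes the electrons to oxygen, and several of its nuclear subunits exist as pairs of isoform genes. Of 14 members tested 2 were higher, 4 lower and 8 not called. The ubiquitous isoforms made up nearly all of the signal: COX6A1, the nuclear member with the highest median over all libraries, had medians of 1607 and 1531 TPM (log2 fold change 0.13, SE 0.12, not called), while its muscle isoform COX6A2 was listed at 0 in every SMAD4-low library and did not exceed 3.05 TPM in the others. COX4I1 had medians of 639 and 561 TPM and a log2 fold change of 0.25 (SE 0.07, adjusted p = 0.00245, edgeR), and its lung isoform COX4I2 stayed at or under 0.199 TPM. COX8A had medians of 1470 and 1138 TPM and a log2 fold change of 0.38 (SE 0.12, adjusted p = 0.00460, edgeR), and COX8C stayed at or under 0.154 TPM. COX6B1 (medians of 554 and 627 TPM) and COX7B (131 and 112 TPM) were not called, and COX7B2 stayed at or under 0.371 TPM.

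In the COX7A family of complex IV the expression differed between the sets. COX7A2 had medians of 267 and 504 TPM, with a log2 fold change of -0.77 (SE 0.10, adjusted p = 5.35e-08, edgeR). COX7A2L, which has been described as a factor joining complexes III and IV, ranged from 39.2 to 59.4 TPM (median 48.3) in the SMAD4-low set and from 85.5 to 165 TPM (median 98.6) in the other. The sets did not overlap, and the log2 fold change was -1.07 (SE 0.11, adjusted p = 4.81e-10, edgeR). COX7A1, the heart and muscle isoform, did not pass the filter and reached 6.07 TPM at most. COX6B2, the testis isoform of COX6B1, was scarce, at 2.02 to 5.03 TPM and 2.46 to 45.0 TPM, with a log2 fold change of -1.49 (SE 0.35, adjusted p = 3.67e-04, edgeR), and -1.02 without library 13, which had the highest value. NDUFA4, long assigned to complex I and now counted with complex IV, had medians of 103 and 192 TPM without overlap and a log2 fold change of -0.77 (SE 0.10, adjusted p = 1.04e-07, edgeR), whereas its hypoxia-related paralogue NDUFA4L2 had medians of 1.84 and 2.45 TPM and was not called.

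Complex V had 5 nuclear members higher, 10 lower and 4 not called of 19, and its subunits of one part of the enzyme went in opposite directions. In the catalytic head, ATP5F1A and ATP5F1B, which form the ring that makes ATP, had medians of 220 against 318 TPM and of 560 against 867 TPM and were lower (log2 fold changes of -0.62 and -0.57). ATP5F1C, the central stalk turning within that ring, ranged from 241 to 304 TPM in the SMAD4-low set and from 166 to 240 TPM in the other, just without overlap, with a log2 fold change of 0.47 (SE 0.06, adjusted p = 1.70e-07, edgeR). ATP5F1E of the stalk was higher as well (0.38), and ATP5F1D was not called (-0.15). ATP5IF1, which inhibits the enzyme when it would run in reverse, had medians of 161 and 114 TPM, with a log2 fold change of 0.48 (SE 0.09, adjusted p = 2.32e-05, edgeR).

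The membrane ring of complex V is built of subunit c, for which ATP5MC1, ATP5MC2 and ATP5MC3 encode the same mature protein. ATP5MC2 ranged from 106 to 178 TPM (median 121) in the SMAD4-low set and from 208 to 338 TPM (median 280) in the other, without overlap, with a log2 fold change of -1.10 (SE 0.09, adjusted p = 2.28e-11, edgeR). ATP5MC1 had medians of 315 and 499 TPM and a log2 fold change of -0.62 (SE 0.14, adjusted p = 3.45e-04, edgeR). ATP5MC3 had medians of 298 and 304 TPM and was not called. In the SMAD4-low set ATP5MC1 and ATP5MC3 thus lay close in median level, whereas in the other set ATP5MC1 was the highest of the family. ATP5MF, the nuclear member of the complex with the highest median over all libraries, had medians of 854 and 1063 TPM with a log2 fold change of -0.26 (SE 0.08, adjusted p = 0.00547, edgeR), and ATP5MGL did not exceed 0.590 TPM. Among the members counted lower are the read-through genes ATP5MF-PTCD1 (medians of 5.43 and 10.9 TPM) and NDUFC2-KCTD14 (22.6 and 31.0 TPM), which share exons with ATP5MF and NDUFC2, so that the split of reads between them is uncertain.

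Among the 12 assembly factors 3 were higher, 7 lower and 2 not called. The factors for complex II again went both ways. SDHAF1, which helps to mature the iron-sulfur subunit SDHB, had medians of 25.8 and 15.7 TPM with a log2 fold change of 0.71 (SE 0.10, adjusted p = 4.32e-07, edgeR). SDHAF4, which acts on SDHA, had medians of 8.18 and 18.5 TPM with a log2 fold change of -1.24 (SE 0.18, adjusted p = 3.76e-07, edgeR). NDUFAF3, a complex I factor, ranged from 21.9 to 46.5 TPM and from 50.4 to 88.4 TPM without overlap (log2 fold change -1.10, SE 0.12, adjusted p = 5.12e-09, edgeR), and NDUFAF8, the most abundant factor, had medians of 207.5 and 209 TPM and was not called.

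Of the 13 mitochondrially encoded members 10 were higher in the SMAD4-low set, to unequal degrees. MT-ATP6, the proton channel subunit of complex V, ranged from 1280 to 5038 TPM (median 2182) in the SMAD4-low set and from 329 to 1547 TPM (median 1004) in the other, with a log2 fold change of 1.46 (SE 0.22, adjusted p = 1.20e-06, edgeR). MT-ATP8, its neighbour and partner, had medians of 1791 and 863 TPM and a log2 fold change of 1.33 (SE 0.25, adjusted p = 2.10e-05, edgeR). These messengers share a transcript and overlap by 46 bases at chrM:8527-8572 (GRCh38), so reads within that stretch cannot be told apart between the genes. The overlap is shown in capitals, with 15 bases on either side and the start codon of MT-ATP6 at its first base.
MT-ATP8 and MT-ATP6: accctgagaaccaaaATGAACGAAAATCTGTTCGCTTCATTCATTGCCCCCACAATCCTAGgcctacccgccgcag
The pseudogenes of MT-ATP6 elsewhere in the genome summed to medians of 60.5 and 29.4 TPM.

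The 3 catalytic core subunits of complex IV were called as well. MT-CO1, which holds the oxygen-reducing centre, ranged from 3927 to 13804 TPM (median 7770) and from 925 to 6039 TPM (median 3743), with a log2 fold change of 1.10 (SE 0.22, adjusted p = 5.09e-05, edgeR). MT-CO3 had a log2 fold change of 1.13 (SE 0.19, adjusted p = 6.49e-06, edgeR) and MT-CO2, which receives electrons from cytochrome c, of 0.75 (SE 0.24, adjusted p = 0.00640, edgeR). MT-CYB, the cytochrome b of complex III, had medians of 1699 and 925 TPM and a log2 fold change of 0.99 (SE 0.22, adjusted p = 2.09e-04, edgeR). Among the complex I subunits MT-ND4 (0.84), MT-ND4L (0.82), MT-ND3 (0.67) and MT-ND5 (0.54) were called, with adjusted p of 0.00216, 0.00358, 0.00777 and 0.0315 by edgeR. MT-ND2 (0.41), MT-ND6 (0.40) and MT-ND1 (0.02) were not. Without library 21 the log2 fold change of MT-ND3 was 0.37. The call of MT-ND5 was lost without library 6, 9 or 26, and MT-ND2 or MT-ND6 gained one without library 3, 5, 17 or 19. MT-ND1, the first of these genes behind the ribosomal RNAs, had medians of 834 and 843 TPM. As a share of the summed mitochondrial TPM of a library, MT-ND1 took 0.904 to 1.65% in the SMAD4-low set and 1.58 to 3.11% in the other, and MT-ATP6 took 2.97 to 5.81% and 1.93 to 3.06%. MT-ND3, a gene of 346 bases, had the highest TPM, at medians of 16565 and 11680.3. It held 46.8% of the mitochondrial sum in library 21 and in library 12, beside medians of 27.7% in the SMAD4-low set and 30.3% in the other. By counts it was not the highest: its means were 1333 and 857 CPM, beside 7244 and 3440 CPM for MT-CO1. The TPM sums thus give this short gene more weight than counts do.

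**Figure D3:**
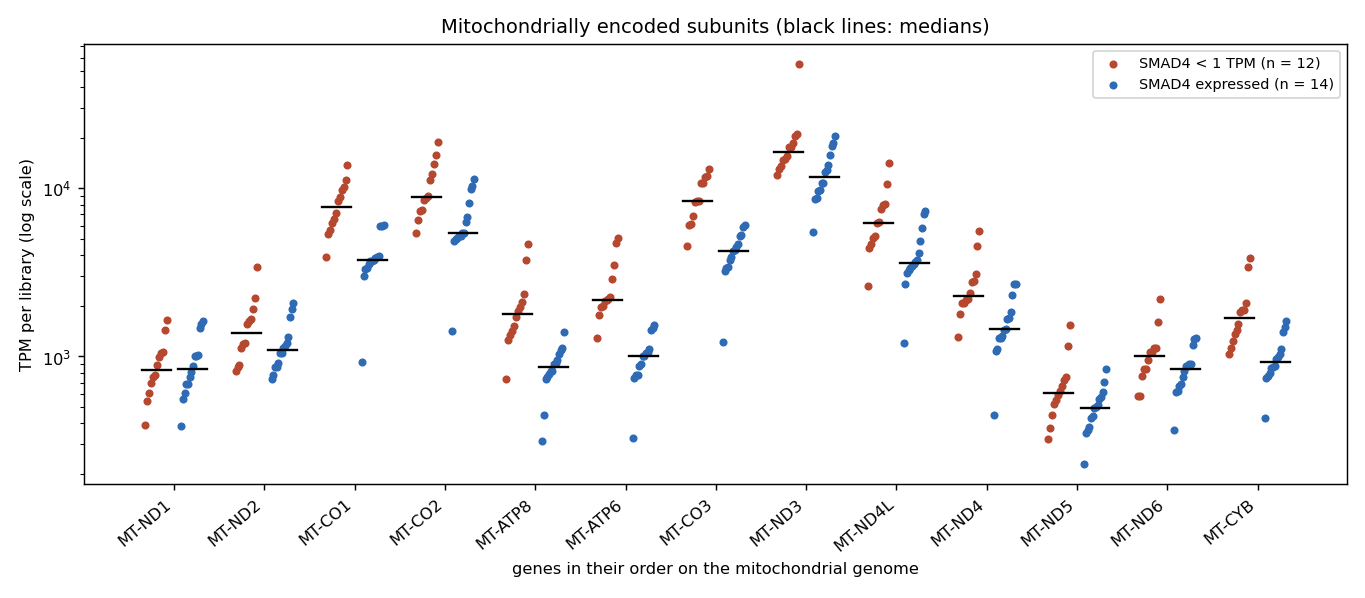
TPM (log scale) of the 13 mitochondrially encoded members in each library, in their order on the mitochondrial genome, by SMAD4 set, with black lines for medians. MT-ND1 has medians of 834 and 843 TPM, MT-CO1 has medians of 7770 and 3743 TPM, and the ranges of the sets overlap for all 13 genes.

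Summed over its 13 members, the mitochondrial signal ranged from 37710 TPM (library 3) to 117615 TPM (library 21) in the SMAD4-low set, with a median of 57600. In the SMAD4-expressing set it ranged from 13473 TPM (library 9) to 61432 TPM (library 20), with a median of 37344. The medians differed by a ratio of 1.54, 5 of the 12 SMAD4-low libraries lay above all others, and the other 7 lay within the range of the other set. The mitochondrial members thus made up 3.82 to 11.9% and 1.37 to 6.24% of a library's TPM. In bulk RNA, more mitochondrial RNA per cell and less of other RNA cannot be told apart. The libraries were made after poly-A enrichment, and whether the capture of mitochondrial messengers differed between clones was not tested. The nuclear members together went slightly the other way, with sums of 22749 to 26766 TPM (median 23274) and 23726 to 30193 TPM (median 27568), a ratio of 0.844. By complex the ratio of medians was 0.812 for complex I, 1.10 for II, 0.804 for III, 0.984 for IV and 0.759 for V. The mitochondrial sum divided by the nuclear sum ran from 1.48 to 4.72 and from 0.458 to 2.30, with 8 SMAD4-low libraries above all others. TPM sums are shares of a fixed total, and these sums were described without a test.

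**Figure D4:**
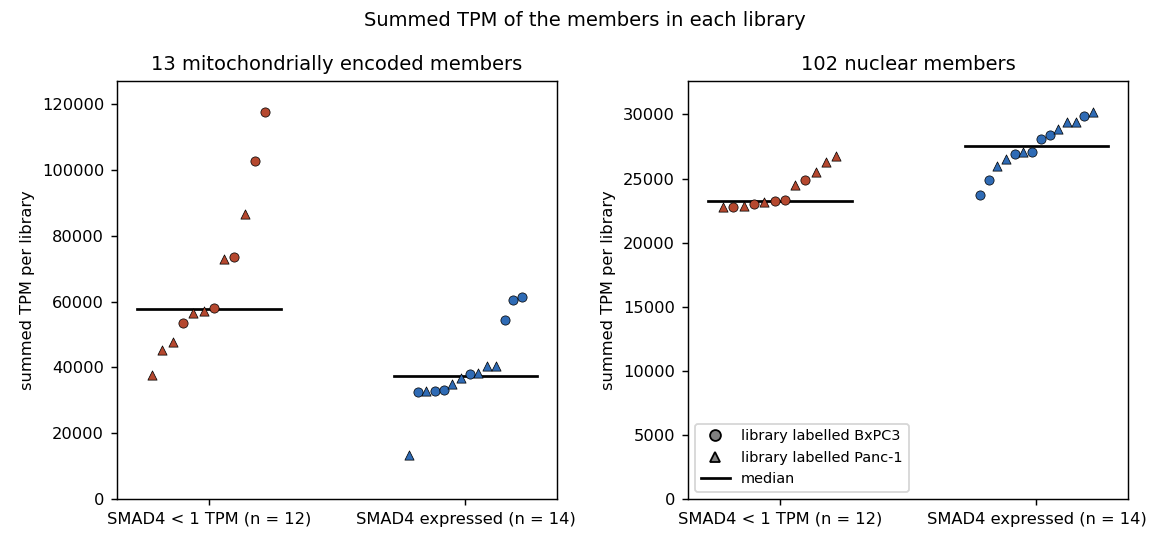
Summed TPM of the 13 mitochondrially encoded (left) and 102 nuclear (right) members in each library, by SMAD4 set, with the marker shape for the labelled line and black lines for medians. The mitochondrial sum spans 37710 to 117615 TPM in the SMAD4-low set and 13473 to 61432 TPM in the other, a wider spread than that of the nuclear sum, which spans 22749 to 26766 and 23726 to 30193 TPM.

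Within a set, the clones varied more in the mitochondrial than in the nuclear members. The median SD of log2(CPM + 1) over the mitochondrial members was 0.66 in the SMAD4-low set and 0.52 in the other, against 0.25 and 0.22 over the nuclear members and 0.27 in both sets over all genes tested. The mitochondrial members varied together, with a median Pearson r between pairs of 0.92 over the 12 libraries and 0.83 over the 14. For pairs of nuclear members the medians were 0.38 and 0.25. Across libraries the mitochondrial and nuclear sums were only weakly related (r of -0.16, n = 12, and -0.20, n = 14). These are descriptions over libraries that share a scale of TPM or CPM. By labelled line, the mitochondrial sum had a median of 73632 TPM for the 5 libraries labelled BxPC3 and 56493 TPM for the 7 labelled Panc-1 in the SMAD4-low set, and of 37976 and 36711 TPM (7 libraries each) in the other.

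Single clones stood apart in single nuclear members. Among members averaging 10 CPM or more within the set (87 and 89), 20 of 2290 values lay over 1.8-fold from the set median, 15 of them lower. This was 0.873% of values, beside 3.01% over all nuclear-encoded protein-coding genes above the same level. Of the 20, 6 fell in the SMAD4-expressing library 19, namely COX6A1, COX7B, COX7C, NDUFA12, NDUFAF2 and NDUFS4, all of them lower. That was 6.74% of the members in that library, against 2.92% of protein-coding genes, and the same library had the lowest nuclear sum of its set. These 6 genes were chosen after their values were seen. COX7C, NDUFAF2 and NDUFS4 lie on chromosome 5, and the neighbours of all 6 are given below.

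In several clones the neighbours of a member on the chromosome deviated with it. NDUFS4, a complex I subunit, and NDUFAF2, a complex I assembly factor, both lie on chromosome 5. In the SMAD4-low library 1 NDUFS4 was at 52.5 TPM, where the others of the set had 91.8 to 131 TPM, and NDUFAF2 was at 36.9 TPM against 63.8 to 100.4 TPM. The protein-coding neighbours within 1000000 bases had a median log2 difference from the set of -0.87 (7 genes) and -0.88 (6 genes) in that library, beside -0.89 and -0.92 for the members themselves. In library 19 the neighbour medians were -0.58 for both NDUFS4 (6 genes) and NDUFAF2 (5 genes), and -0.70 for COX7C (2 genes). They were -0.51 for NDUFA12 (8 genes) and -0.39 for COX6A1 (26 genes), but 0.03 for COX7B (5 genes). In the SMAD4-expressing library 18, SDHD was at 92.7 TPM (others 131 to 240 TPM) and ATP5MG, a complex V subunit, at 210 TPM (others 382 to 630 TPM), both on chromosome 11, with neighbour medians of -0.66 (15 genes) and -0.71 (29 genes). NDUFV2, a core subunit on chromosome 18, reached 382 TPM in library 22 and 284 TPM in library 10 against a set median of 135 TPM, with neighbour medians of 0.57 and 0.46 (9 genes). Libraries 15 and 11 of the same set followed at 242 and 229 TPM, and the lowest was library 18 at 99.8 TPM. High NDUFV2 was thus not limited to libraries 22 and 10. NDUFA1 was at 309 TPM in library 24 (set median 582 TPM), and 13 of its 18 neighbours on the X chromosome were lower by over 1.8-fold there. In contrast NDUFB9 (1479 TPM, set median 788) and COX6A1 (2743 TPM, set median 1607) were high in library 21, with neighbour medians of 0.02 and -0.06. Library 21 had the highest mitochondrial sum in TPM. Of 19 such values with at least 5 neighbours, 17 had a neighbour median of the same sign. The same share was not computed for outlying values of all protein-coding genes, so 17 of 19 has no background. Some of the 19 share a gene, or a chromosome in the same library, and are not independent.

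**Figure D5:**
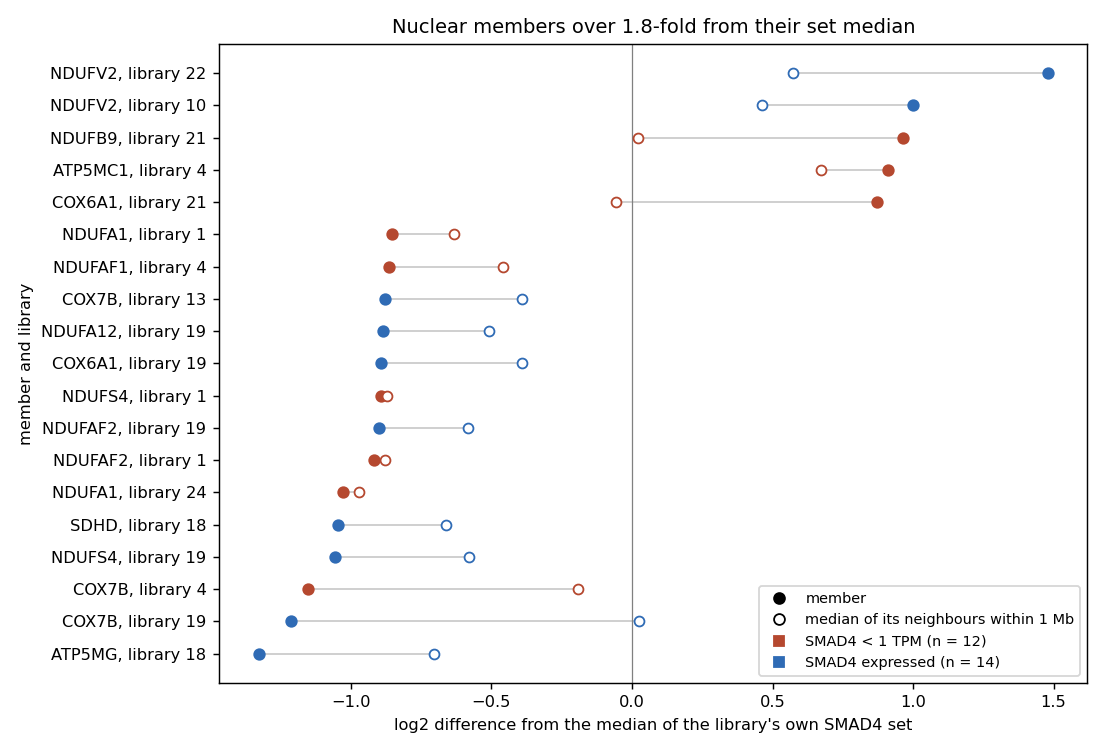
Values of nuclear members over 1.8-fold from the median of their SMAD4 set in 1 library (filled circles) and the median deviation of their protein-coding neighbours within 1 Mb in the same library (open circles), as log2 differences of CPM + 1, for the 19 values with at least 5 neighbours. For NDUFS4 and NDUFAF2 in library 1 and NDUFA1 in library 24 both circles nearly coincide, while COX7B in library 19 and NDUFB9 and COX6A1 in library 21 lie far from neighbours near 0.

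Position was also compared for the difference between the sets. For the 90 nuclear members with at least 5 tested neighbours, the member and the median of its neighbours had log2 fold changes of the same sign in 63 (70.0%), and Pearson's r across these genes was 0.42. Over all 13175 protein-coding genes the same-sign share was 64.6% and r was 0.26. These r values are across genes, and neighbouring genes are not independent. NDUFA12 (neighbour median -0.92), COX7A2L (-1.41) and NDUFA8 (1.18) had neighbours that moved with them to a similar degree. The neighbours of SDHA (0.42, beside 1.77 for the gene) and of ATP5MC2 (-0.53, beside -1.10) moved the same way but less. NDUFS1 at -0.80, with a neighbour median of 0.32, was among the members whose neighbours went the other way.

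Promoters were matched for 82 of the 102 nuclear members. GCGCANGCG (NRF1), searched on both strands, was found in 26 (31.7%), beside 14.1% of the 11219 promoters of tested protein-coding genes and 8.05% of all 27305 promoters. AANATGGC (YY1) was found in 23 (28.0%, beside 9.58% and 6.82%), CCGGAAGT (GABPA) in 11 (13.4%, beside 8.33% and 4.44%), and TCAAGGTCA (ESRRA) in 1 (1.22%, beside 0.187% and 0.359%). The NRF1 letters stood in 7 of the 16 members that were higher in the SMAD4-low set and in 5 of the 34 matched members that were lower. The YY1 letters stood in 6 of 16 and 5 of 34, the GABPA letters in 2 of 16 and 4 of 34, and the ESRRA letters in 0 of each. The other members holding each motif were not called or not tested, NDUFB4 with 4 NRF1 matches among them. None of the motifs was thus particular to the members that were higher. These are counts of letters in a window of 300 bases and were not tested.

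Of 19 regulators of these genes and of mitochondrial DNA that were tested 4 were higher and 6 lower. NRF1 itself had medians of 9.88 and 9.26 TPM (log2 fold change 0.13, SE 0.08), GABPA 16.1 and 14.3 TPM (0.10, SE 0.08) and TFAM, which packages and transcribes mitochondrial DNA, 87.0 and 80.2 TPM (0.12, SE 0.09), and none was called. PPARGC1A, a coactivator of mitochondrial biogenesis, did not exceed 0.429 TPM, while its paralogue PPARGC1B had medians of 3.54 and 1.97 TPM (0.84, SE 0.17, adjusted p = 5.38e-05, edgeR). YY1 had medians of 81.9 and 54.3 TPM without overlap (0.55, SE 0.06, adjusted p = 7.09e-09, edgeR). TFB1M (-0.81) and LRPPRC (-0.67), which act on the mitochondrial ribosome and on mitochondrial messengers, were lower.

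Among assembly factors outside the prefixes 11 were higher and 11 lower of 37, with COA3 (1.18) and UQCC3 (1.09) at one end and COX20 (-1.31) and LYRM7 (-0.89) at the other. Of 17 electron carriers and coenzyme Q genes 5 were higher and 8 lower: COQ4 (1.53) and COQ8A (1.29) were highest among those called, and ETFDH (-1.93) and COQ5 (-1.45) lowest. CYC1, the cytochrome c1 subunit of complex III that the prefixes leave out, had medians of 238 and 299 TPM (-0.25, SE 0.07, adjusted p = 0.00286, edgeR), and CYCS, cytochrome c, 177 and 367 TPM (-1.10). The tricarboxylic acid cycle and pyruvate dehydrogenase list had 7 higher and 9 lower of 23, with the phosphatase PDP1 (2.08) and the kinase PDK3 (1.87) highest. Among called genes whose mean reached 10 CPM, FH (-0.95) and IDH3G (-0.69) were lowest. The scarcer kinase PDK4, named after its values were seen, was lower still (-1.99). The glycolysis and lactate list had 11 higher and 7 lower of 21. SLC2A1, the glucose importer, had medians of 361 and 52.0 TPM (2.65) and HK2, which traps glucose in the cell, 27.4 and 3.23 TPM (2.77), whereas SLC16A3, a lactate exporter, had 180 and 639 TPM (-1.66) and ENO2, a neuronal enolase, was lower too (-1.89). The mitochondrial ribosomal proteins, which translate the mitochondrial messengers, had 18 higher and 37 lower of 77, with a median log2 fold change of -0.18, close to that of the nuclear members.

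Between the labelled lines no member was called. With the same edgeR fit, 0 of 108 members and 0.0% of all genes were called, and 10 members had an unadjusted p under 0.05, among them MT-ND1, MT-ND2 and MT-ND3, beside 367 of 16008 genes. DESeq2 and limma also called 0 members, with 14 and 12 at an unadjusted p under 0.05. With the SMAD4 set as a second term 0 members were called, with 22 at an unadjusted p under 0.05, of which 9 were mitochondrial, beside 1204 of 16008 genes, and the smallest adjusted p was 0.546 (edgeR). Since each label held libraries of both sets, this comparison averages over them. It therefore cannot show whether BxPC3 and Panc-1 cells differ in these genes.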

How the data were processed

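Messenger RNA was sequenced from 26 SCDCLs after poly-A enrichment. The authors quantified transcripts with kallisto 0.46.1 against the Ensembl annotation of GRCh38 and deposited a gene table made with tximport, which gives TPM, length-scaled estimated counts (expected counts, not normalized between libraries) and counts from 30 resampling runs of kallisto. The resampling and gene length columns, 806 per-sample columns in all, were not used. Identifiers were matched to GENCODE 44 (36315 of 41078), and the 4763 unmatched held 2.38 to 3.21% of TPM. The study compared response groups that the labels do not give, so these were not analysed here. The members and gene lists were chosen with earlier results of these data known.

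Estimated counts were rounded and tested in edgeR 4.0.16 (R 4.3.3, filterByExpr, TMM, quasi-likelihood F test, Benjamini-Hochberg over all genes), with DESeq2 1.42.0 and limma 3.58.1 as alternatives, after tests on simulated data. The SE is the log2 fold change over the square root of F. P-values measure the spread between clones within the sets and not between independent cases of SMAD4 loss. Error from assigning reads among similar transcripts was not measured. Calls used an adjusted p under 0.05. CPM used TMM factors and a pseudocount of 1. Library numbers belong to 1 label each and pair nothing. Named genes were all mitochondrial members, the most abundant and the most changed members of each complex (over 2-fold where any passed, otherwise 1 each way), isoform families, the 3 most variable members per set with a mean of 10 CPM, and up to 2 genes each way from other lists; other names were chosen after their values were seen. Tables and figures used Python 3.11.15, pandas 2.3.3 and matplotlib 3.10.9.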

Additional observations from a re-analysis of the deposited data

How the results depend on the processing

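The number of nuclear members called was 60 and ranged from 60 to 63 under another normalization (DESeq2 size factors, library totals, or mitochondrial genes left out), another filter, DESeq2, limma on log2(TPM + 1) or log2(TPM + 0.1), or with the labelled line as a term, and from 57 to 63 when single libraries were left out. The number of mitochondrial members called was 10 and ranged from 9 to 12 over the same alternatives other than leaving the mitochondrial genes out, and from 9 to 12 over libraries left out. With DESeq2, 20 nuclear members were higher and 43 lower, beside 16 and 44. No alternative called a member between the labelled lines. The log2 ratio of set medians was 0.63 for the mitochondrial sum (0.84 with CPM, 0.78 with means, 0.60 to 0.65 with a library left out) and -0.24 for the nuclear sum (-0.15, -0.20, -0.27 to -0.22, and -0.19 without mitochondrial genes).

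Of the named members, 3 that were not called changed sign. ATP5MC3 (-0.01) was at 0.016 with DESeq2 size factors and with DESeq2, and between -0.046 and 0.038 with a library left out. MT-ND1 (0.02) was at -0.027 with library totals, -0.011 without a filter and -0.035 with limma at both pseudocounts, and between -0.15 and 0.11 with a library left out. SDHD (0.05) lay between -0.0092 and 0.088 with a library left out. MT-ND5 lost its call with limma (0.40) and without library 6, 9 or 26 (0.41, 0.48 and 0.31), and MT-ND2 (0.44) and MT-ND6 (0.46) were called with the labelled line as a term. COX7B was called without library 4 (0.39). The causes were not tested. No paired analysis was possible because the library numbers of the labels are not shared between groups. Depth limits the isoform genes near 0, and each clone was sequenced once.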
